A study of Mus musculus with 8 samples.

Results

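Chymotrypsins and pancreatic elastases are serine proteases that acinar cells make as inactive proenzymes, store in zymogen granules and release into the duct. The 7 mouse genes described here were taken by name from the deposited gene table: the chymotrypsin genes Ctrb1, Ctrl and Ctrc and the elastase genes Cela1, Cela2a, Cela3a and Cela3b. All 7 were found among the 11789 listed genes, and all 7 passed the filter on low values. They were measured by strand-specific total RNA sequencing in 8 whole pancreases of mice aged 6 weeks, 1 library per mouse. Of these, 4 mice were wild type and 4 had the genotype Daxxfl/flPdx1-CreTg, that is, floxed Daxx alleles with a Pdx1-Cre transgene, and are called Daxx deleted below. Daxx is a histone chaperone of silent chromatin. Pdx1-Cre recombines in embryonic pancreatic progenitors and their epithelial progeny, so vessels, stroma and blood cells of the organ keep their floxed alleles. The labels name no group with the transgene alone or the floxed alleles alone, so Daxx loss, Cre and the floxed alleles cannot be told apart. The design text gives equal numbers of both sexes in each genotype, but the sex and the strain of each mouse are not given in the labels.

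In the gut, trypsin cuts the proenzymes of both families into active enzymes. Chymotrypsins then cut proteins after large hydrophobic residues, and elastases mainly after small ones. Chymotrypsin C, the product of Ctrc, also cuts trypsinogen and trypsin themselves and is known as a guard against trypsin activity inside the pancreas. Acinar transcription factors, among them the complex of Ptf1a and Rbpjl, switch these genes on together in acinar cells.

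The 7 genes lie at 5 loci of GRCm38, all on the minus strand. Ctrb1 is at chr8:111686519-111691010 and Ctrl at chr8:105932003-105933862. Cela1 is at chr15:100674421-100687921. Cela3a (chr4:137401554-137409791) and Cela3b (chr4:137420999-137430540) are neighbours, 11208 bases apart. Cela2a (chr4:141814962-141826160) lies inside the GENCODE M21 span of Ctrc (chr4:141814962-141846359), because 1 of 5 Ctrc transcripts runs on into the last Cela2a exons. The shared exons cover 305 bases, which is 17.7% of the exonic bases of Cela2a and 21.4% of those of Ctrc. RefSeq ends Ctrc before Cela2a, at chr4:141838239-141846287. Reads that fall on the shared bases cannot be assigned to either gene with certainty.

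Between the genes, coding sequences were 61.2% to 67.1% identical over aligned bases, except for Cela3a and Cela3b, which shared 93.9% (758 of 807 bases). Of all 50-base windows of the Cela3a transcript 34.2% also occur in Cela3b, so that a part of the reads of this pair cannot be told apart. No 50-base window of the main transcripts of Ctrb1, Ctrl, Ctrc or Cela1 occurs in a transcript of another gene.

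Ctrc is shown first by its second exon, since its level split the libraries more than that of any other member. GENCODE lists the gene as protein-coding, but RefSeq, on the same assembly, lists it as a transcribed pseudogene. The coding model Ctrc-201 leaves out 2 bases near the end of the second exon, and the non-coding model Ctrc-204 keeps them. The exon is printed 5′ to 3′ from Ctrc-204 (GRCm38, minus strand, chr4:141845182-141845272), with the 2 bases that Ctrc-201 leaves out in capitals:

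Ctrc exon 2: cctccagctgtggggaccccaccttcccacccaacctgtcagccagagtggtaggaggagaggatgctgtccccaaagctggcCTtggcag

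This is the sequence of the reference assembly. The Ctrc sequence of the 8 mice was not analysed here.

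Promoters are shown for Ctrb1, the member with the most reads, and for Cela3b and Cela3a, whose promoters are close to each other although their RNA levels are not. Each run is the 250 bases before the RefSeq start on GRCm38.p6, 5′ to 3′ on the minus strand. Capitals mark CANNTG, the E-box bound by helix-loop-helix factors such as Ptf1a, and TTTCCC, the core of the TC box bound by Rbpjl, on either strand (GGGAAA on the other).

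Ctrb1, chr8:111691011-111691260: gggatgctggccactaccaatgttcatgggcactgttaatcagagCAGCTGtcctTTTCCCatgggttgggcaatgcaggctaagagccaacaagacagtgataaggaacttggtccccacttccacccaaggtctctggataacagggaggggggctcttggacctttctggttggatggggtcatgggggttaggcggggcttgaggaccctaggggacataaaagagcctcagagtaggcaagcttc

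Cela3b, chr4:137430521-137430770: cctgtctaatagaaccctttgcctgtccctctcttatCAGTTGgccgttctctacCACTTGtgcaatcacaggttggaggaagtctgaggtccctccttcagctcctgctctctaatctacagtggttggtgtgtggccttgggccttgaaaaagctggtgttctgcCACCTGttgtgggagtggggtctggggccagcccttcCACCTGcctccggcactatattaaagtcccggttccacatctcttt

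Cela3a, chr4:137409792-137410041: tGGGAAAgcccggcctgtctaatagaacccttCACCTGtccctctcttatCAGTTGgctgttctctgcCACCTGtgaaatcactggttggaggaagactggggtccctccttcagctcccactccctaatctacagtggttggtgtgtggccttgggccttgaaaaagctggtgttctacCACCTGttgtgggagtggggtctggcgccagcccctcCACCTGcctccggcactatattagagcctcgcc

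In Ctrb1 the E-box starts 205 bases and TTTCCC 195 bases before the start. Cela3a held 5 matches to CANNTG and Cela3b held 4, of which 4 and 2 read CACCTG. The promoters of Cela3a and Cela3b were 92.4% identical over aligned bases, against 56.1% to 64.7% for the other pairs. Of the 7 genes, 6 matched the RefSeq promoter table, all but Ctrc. CANNTG occurred in 6 of these 6 promoters and in 66.2% of all 32851 promoters of the same length. CACCTG, a form of CANNTG, occurred in 5 of 6 and in 17.2% of all. TTTCCC occurred in 4 of 6 (Ctrb1, Cela1, Cela2a and Cela3a) and in 21.9% of all. CANNTG together with TTTCCC was found in the same 4, and in 14.2% of all. The other words searched, on both strands, were CAGCTG, also a form of CANNTG (3 of 6, 13% of all), AAGGTCA, the core bound by Nr5a2 (Cela1 only, 4.08%), and TATAAA, a form of the TATA box (Cela1 only, 12.4%). Other forms of the TATA box were not searched, so promoters without this exact word may still hold one. A match shows the letters only, and does not show that a factor binds.

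The 8 libraries held 7705789 to 10517508 reads over the listed genes. The targeted gene, Daxx, averaged 47.6 ± 8.02 normalized counts (SD, n = 4) in the wild-type mice. In the mice with Cre it averaged 27.97 ± 3.88 (SD, n = 4), and its 2 groups of values were separate, as for 1.87% of all tested genes. By limma, the test used below, Daxx itself was not called (adjusted p = 0.9997), on 26 to 51 reads per library. Defining markers of acinar cells other than the members (7 of 7 listed, among them Cpa1, Ptf1a and Rbpjl) summed to 1889796 to 2077069.6 normalized counts in wild type and to 1578588 to 2205521 in Daxx-deleted libraries. Sums of 7 ductal markers were 1110.2 to 1309 and 1081 to 1310.0, and those of 7 islet markers 2059 to 7643 and 1633 to 7397. Of the ductal sums, 573 to 866 came from Muc1, which is also counted among the zymogen granule genes below. Sums ran from 481 to 558 and 454 to 579 for 4 endothelial markers, and from 1363 to 2053 and 1529 to 2718 for 5 stromal markers. Of immune markers 4 of 6 were listed (189 to 307 and 130.2 to 394), all but Cd3e and Cd79a, and of adipocyte markers 3 of 4 (58.4 to 132 and 59.8 to 242). Of 5 gut epithelium markers only Vil1 was listed (10.4 to 18.6 and 2.50 to 17.7). No listed marker was at 0 in all libraries, and the part of these cell types in the results below was not tested. In whole tissue, fewer acinar cells and less RNA per acinar cell cannot be told apart.

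The 7 genes took 24.3% to 30.0% of all reads in a library. Their summed share averaged 27.0% ± 2.28 over the wild-type libraries and 26.9% ± 2.09 over the Daxx-deleted ones (SD, n = 4 each). Ctrb1 alone took 9.10% to 12.6% of a library and Cela1 5.28% to 6.73%. Cela2a took 4.35% to 5.49%, Cela3b 2.54% to 3.26% and Ctrl 1.94% to 2.34%. Ctrc ran from 0.0348% to 0.826%. Cela3a stayed between 0.00168% and 0.00430%. Apart from Ctrc and Cela3a, the genes kept the same order of shares within the family in all 8 mice. Ctrb1 made up 35.0% to 43.0% of the family's normalized counts, Cela1 21.3% to 24.2% and Cela2a 17.3% to 19.4%. Cela3b made up 9.78% to 12.1% and Ctrl 7.08% to 9.11%. The mix still varied, with Ctrl at 16.7% to 24.8% of the counts of Ctrb1. The genotypes overlapped in the share of each of the 7 genes.

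**Figure D1:**
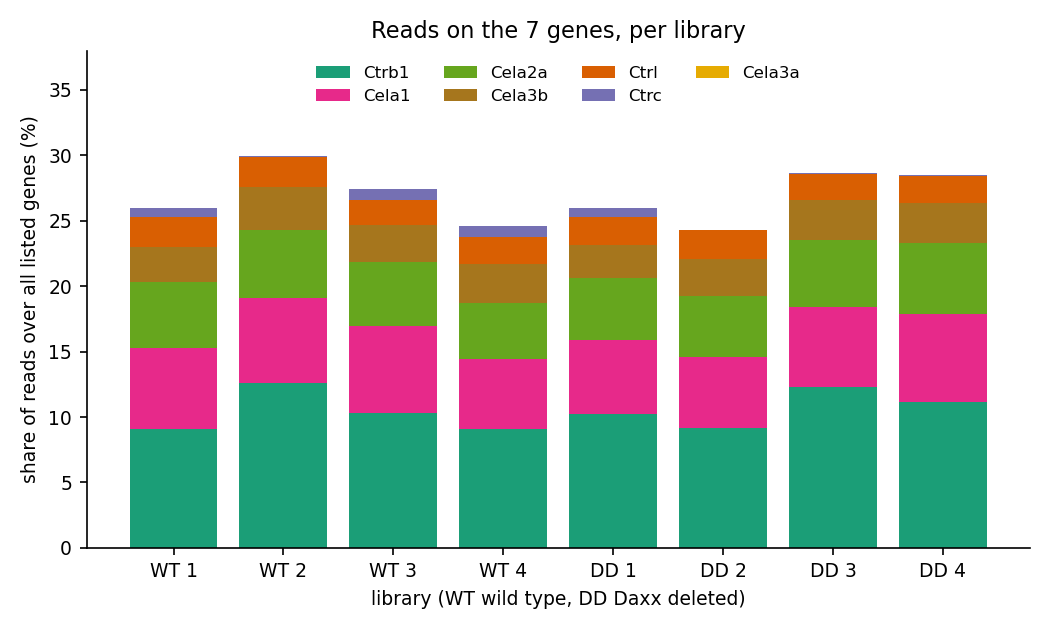
Share of each library's reads (%, linear axis from 0) that fell on each of the 7 genes, stacked, for wild-type (WT) and Daxx-deleted (DD) replicates 1 to 4. The full bars reach 24.3% to 30.0%, Ctrb1 is the largest block in every library, Ctrc is a clear band in 4 of them and a line or less in the other 4, and Cela3a is too small to see.

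Levels were compared between genes as normalized counts per kilobase of exonic length in the annotation. Ctrb1 was highest in all 8 libraries, at 1115209 ± 226176 per kilobase over the wild-type mice and 1075791 ± 239721 over the Daxx-deleted ones (SD, n = 4 each). Cela2a (268607 ± 28383 in wild type) and Cela1 (253679.5 ± 32043) came next, and their order depended on the length used. Cela2a was above Cela1 in 7 of 8 libraries per exonic base, but in 0 of 8 per base of the main transcript or of the coding sequence. Ctrl (176588 ± 20321) and Cela3b (167593 ± 20208) followed, with Ctrl above Cela3b in 4 of 8 libraries, and in 0 of 8 on the other 2 lengths. Ctrc was sixth in every library, at 1907 to 53408 per kilobase. Cela3a was last in every library, at 137 to 404 per kilobase. Ctrb1 and the places of Ctrc and Cela3a were the same on all 3 lengths.

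**Figure D2:**
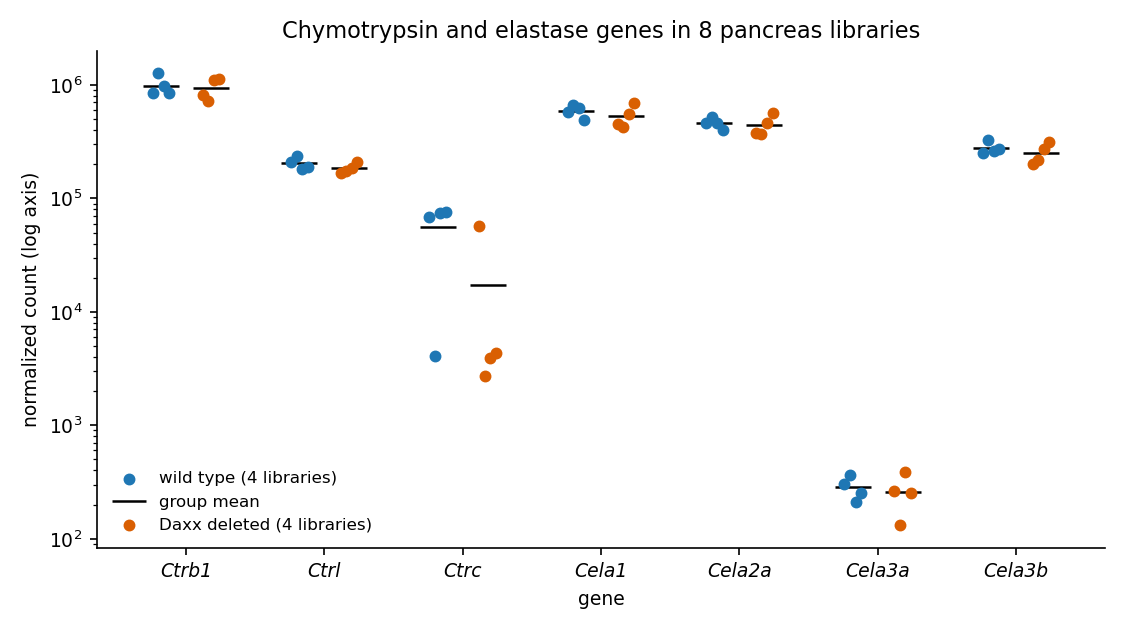
Normalized count (log axis) of each of the 7 genes in 4 wild-type and 4 Daxx-deleted libraries, 1 point per library, with a line at each group mean. The 2 genotypes overlap for every gene, and the points of Ctrc fall at 2 levels, 2723 to 4297 and 57356 to 76266.

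The genotype comparison called none of the 7 genes. With limma, 0 of 7 had an adjusted p under 0.05 (Benjamini-Hochberg over the 10468 genes tested), and 0.0% of all genes did. All 7 had an adjusted p of 0.9997. An unadjusted p under 0.05 was found for 1 member, Ctrc, which was lower, and for 2.88% of all genes (1.57% lower). The quasi-likelihood test of edgeR called none of the 10468 genes (2.86% had an unadjusted p under 0.05). By DESeq2 1 gene was called, or 0.00955%, and it was no member (2.09% unadjusted). Ctrc was not under 0.05 by either of these (unadjusted p of 0.0737 by edgeR and 0.157 by DESeq2). The 4 values of each genotype did not separate for any of the 7 genes, where they did for 1.87% of all tested genes (1.04% with the Daxx-deleted group lower). All 7 log2 fold changes lay below 0, with a median of -0.16, where 51.9% of all genes did and their median was -0.01. The members share the same animals and most rose and fell together between them, so these are not 7 independent signs. With equal library totals Ctrb1 and Cela2a came out above 0, and the median of all genes moved to 0.11. Rescaling moves all genes by nearly the same amount, so it cannot test the place of the members relative to that median.

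**Figure D3:**
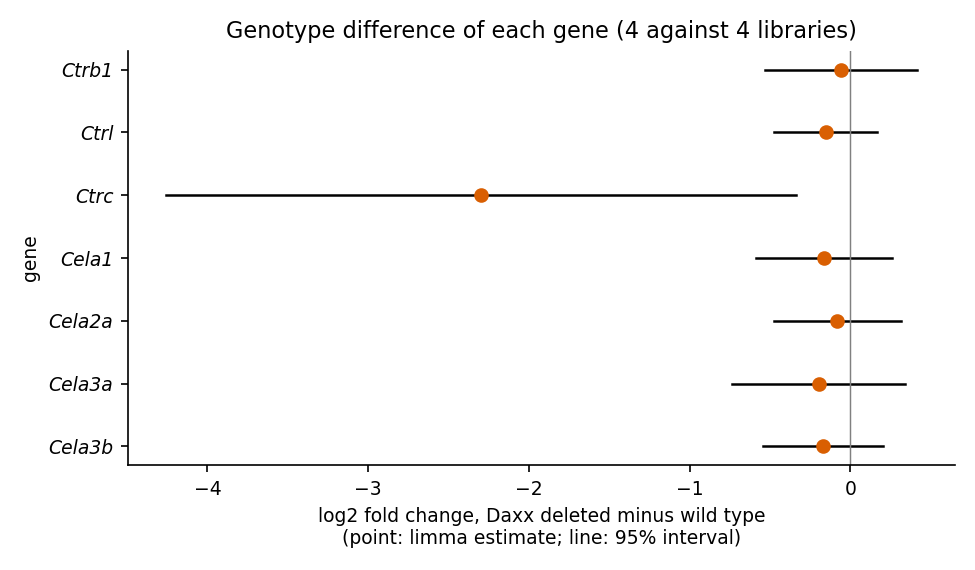
Log2 fold change of each gene, Daxx deleted minus wild type, as estimated by limma from 4 against 4 libraries, with its 95% interval. The intervals of 6 genes include 0, and that of Ctrc, from -4.26 to -0.34, is the widest and does not. The values of Ctrc are split within each genotype, which an interval from limma does not describe. Its exact permutation p was 0.0857 (two-sided).

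Among the chymotrypsin genes, Ctrb1 encodes chymotrypsinogen B, the main mouse chymotrypsin precursor, and had the highest mean of all listed genes. It had 843480.4, 1263619.8, 967635 and 841878 normalized counts in wild-type replicates 1 to 4 and 817569.8, 714754, 1110042 and 1135813 in Daxx-deleted replicates 1 to 4. The highest value was in wild type and the lowest in a Daxx-deleted library, and 2 of 4 Daxx-deleted libraries lay below all wild-type ones. The group means were 979153 ± 198583 and 944545 ± 210475 (SD, n = 4 each). Ctrb1 differed between genotypes by -0.06 ± 0.22 on the log2 scale (SE; 95% interval -0.53 to 0.42), or 0.691 to 1.33 times the wild-type level. The sign of Ctrb1 turned with equal library totals, with equal totals outside the digestive enzymes, and when any 1 of 3 mice was left out (replicate 2 of the wild type, replicates 1 and 2 of the deletion). The exact permutation test over the 70 relabellings gave p = 0.743 (two-sided).

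Ctrl encodes a chymotrypsin-like protease, and of the 7 genes its level varied least between mice of 1 genotype. Normalized counts were 209285, 234946, 182078 and 190235 in wild-type replicates 1 to 4 and 165685, 173233, 185049 and 209935 in Daxx-deleted replicates 1 to 4. The group means were 204136 ± 23491 and 183476 ± 19356 (SD, n = 4 each), and 2 Daxx-deleted libraries lay below all wild-type ones. Daxx-deleted mice differed by -0.15 ± 0.15 (log2, SE; 95% interval -0.47 to 0.17; exact permutation p = 0.257). The SD of its log2 values within a genotype was 0.16, larger than that of 14.8% of all tested genes.

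Ctrc stood at 1 of 2 levels in each mouse, and both levels occurred in both genotypes. Wild-type replicates 1, 3 and 4 had 68282, 73618 and 76266 normalized counts, and wild-type replicate 2 had 4065. Daxx-deleted replicate 1 had 57356, and Daxx-deleted replicates 2, 3 and 4 had 2723, 3946 and 4297. No library lay between 4297 and 57356, and the highest value was 28.006 times the lowest. Within a genotype the SD of its log2 values was 2.05, larger than that of 99.9% of all tested genes, where the median gene had 0.27.

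The genotype means of Ctrc, 55558 ± 34489 and 17081 ± 26859 (SD, n = 4 each), therefore rest on how many mice of each genotype had the low level, 1 of 4 in wild type and 3 of 4 in Daxx deleted. On the log2 scale the difference was -2.30 ± 0.92 (SE; 95% interval -4.26 to -0.34), with an unadjusted limma p of 0.0245 and an exact permutation p of 0.0857 (two-sided). Without wild-type replicate 2 it was -3.34 (limma adjusted p = 0.438) and without Daxx-deleted replicate 1 it was -3.30 (limma adjusted p = 0.613). With any other mouse left out it was smaller, from -2.05 to -1.83 (unadjusted limma p of 0.063 to 0.074). Over all 19 alternative fits the adjusted p of Ctrc ran from 0.438 to 0.99995. edgeR gave -1.69 and DESeq2 -1.70, on the scale of group means. By the numbers in the sample titles, Daxx-deleted replicate 1 and all wild-type mice come first, and Daxx-deleted replicates 2 to 4 come last. Those that come last all had low Ctrc, and of the first only wild-type replicate 2 had it. Genotype and this order therefore cannot be fully told apart, and a part of the order in the split was not tested.

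In the libraries with low Ctrc, its level was a narrow fraction of that of Cela2a, with which it shares exons. The ratio of their normalized counts was 0.780% in wild-type replicate 2. It was 0.739%, 0.856% and 0.766% for replicates 2 to 4 of the Daxx-deleted mice. In the other 4 libraries it stood at 14.7%, 15.9% and 19.0% (wild type) and 15.2% (Daxx deleted). In the libraries with low Ctrc, its share of the whole family's normalized counts was also narrow, at 0.135% to 0.153%. Cela2a is part of that sum, at 17.3% to 19.4% of it in every library, so the narrow ratio and the narrow share are not separate observations. Whether reads from the shared exons contribute to the low values was not tested. Cela2a did not follow the levels of Ctrc: its lowest and highest values, 368416 and 560671, were both in libraries with low Ctrc (Daxx-deleted replicates 2 and 4).

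**Figure D4:**
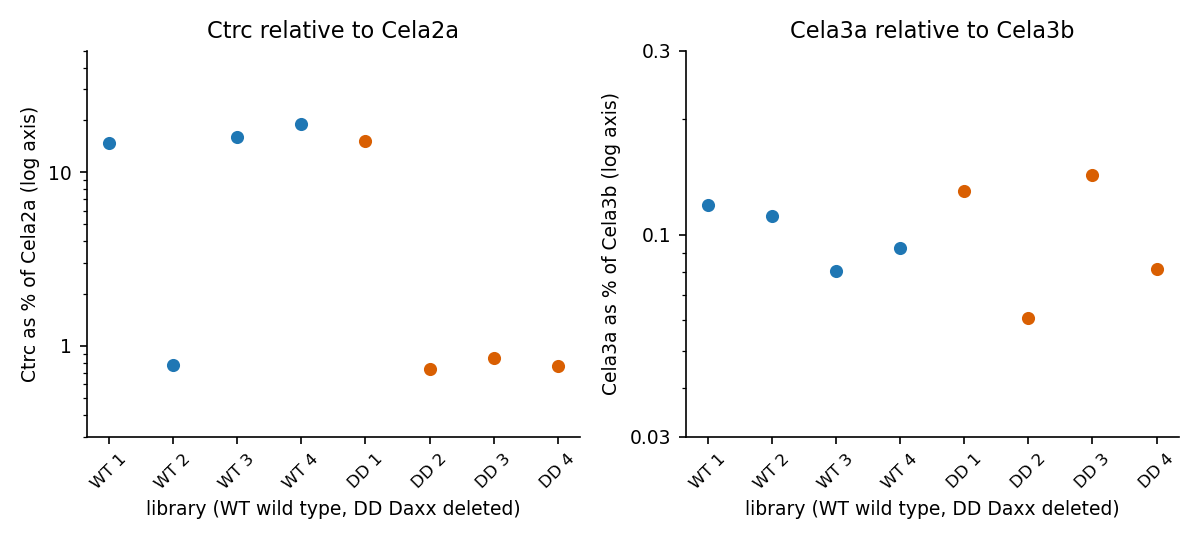
Left, normalized count of Ctrc as a percentage of that of Cela2a in each library, and right, that of Cela3a as a percentage of Cela3b (log axes, different ranges; WT wild type in blue, DD Daxx deleted in orange). Ctrc lies at 0.739% to 0.856% of Cela2a in 4 libraries and at 14.7% to 19.0% in the other 4, and Cela3a lies at 0.0609% to 0.143% of Cela3b throughout.

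The nearest tested genes around the Ctrc locus did not show the split. Casp9, the initiator caspase of the mitochondrial death pathway, overlaps the end of the locus on the other strand. It had 27.3, 28.7, 29.2 and 11.5 normalized counts in wild-type replicates 1 to 4 and 16.5, 15.0, 17.7 and 24.1 in Daxx-deleted replicates 1 to 4. On the other side Efhd2, a calcium-binding protein gene, ran from 108 to 130.5 and from 89.6 to 122. Of all tested genes outside the family, Dhx33, an RNA helicase gene, had the pattern most like that of Ctrc (Pearson r = 0.97 of log2 values over 8 libraries). Its range was narrow: 113, 117, 122 and 117 in the 4 libraries with high Ctrc and 97.8, 99.96, 98.9 and 99.7 in the other 4. Mettl2, a methyltransferase gene, came second (r = 0.95) at 15.7 to 28.3. These are the top 2 of 10461 genes ranked on 8 points, and nothing more is read from the ranking.

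Among the elastase genes, Cela1 encodes the classical pancreatic elastase of the mouse. It had 572227, 658699.6, 621308 and 487705 normalized counts in wild-type replicates 1 to 4 and 450080.0, 426794, 548756 and 688228 in Daxx-deleted replicates 1 to 4. Both the lowest and the highest values were in Daxx-deleted libraries. The means were 584985 ± 73890.4 and 528464 ± 118908 (SD, n = 4 each), a log2 difference of -0.16 ± 0.20 (SE; 95% interval -0.58 to 0.26; exact permutation p = 0.4).

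Cela2a encodes elastase 2A. Its values were 464779, 521429, 463336 and 401698 in wild-type replicates 1 to 4 and 377279, 368416, 460836 and 560671 in Daxx-deleted replicates 1 to 4. Again the Daxx-deleted libraries held both ends of the range. The means, 462811 ± 48905 and 441800.3 ± 89519 (SD, n = 4 each), were -0.08 ± 0.18 log2 units apart (SE; 95% interval -0.48 to 0.31; exact permutation p = 0.6), and the difference was above 0 with equal library totals. Cela1 and Cela2a had the most similar patterns of the family (r = 0.98 over 8 libraries). Cela2a stood at 74.6% to 82.4% of the counts of Cela1 in wild type and at 81.5% to 86.3% in Daxx-deleted libraries, ranges that overlap.

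Cela3b and Cela3a are the copies of a neighbouring pair that encode elastases of class 3. Cela3b had 251746, 327594, 262590.1 and 274236 normalized counts in wild-type replicates 1 to 4 and 202559.9, 216091, 270682 and 310969 in Daxx-deleted replicates 1 to 4. Its lowest 2 values were in Daxx-deleted libraries and its highest in wild type. Its means were 279042 ± 33646 and 250075 ± 50151 (SD, n = 4 each), with a log2 difference of -0.17 ± 0.18 (SE; 95% interval -0.55 to 0.20; exact permutation p = 0.343).

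Cela3a had 301, 366, 211 and 253 normalized counts in wild-type replicates 1 to 4 and 263, 132, 387 and 254 in Daxx-deleted replicates 1 to 4. Daxx-deleted libraries held the lowest and the highest value, and behind these stood 158 to 372 reads per library. With means of 283 ± 66.7 and 259 ± 104 (SD, n = 4 each), Cela3a had a log2 difference of -0.20 ± 0.25 (SE; 95% interval -0.74 to 0.34; exact permutation p = 0.686), and it turned to 0.09 without Daxx-deleted replicate 2. With coding sequences 93.9% and promoters 92.4% identical, Cela3b had 699 to 1642 times the normalized counts of Cela3a in the same library. Because about 1 in 3 windows of the pair are shared (34.2% and 33.2%), the part of the Cela3a counts that comes from Cela3b RNA cannot be given.

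The genes of the family other than Ctrc and Cela3a rose and fell together from mouse to mouse. Correlations of log2 values over the 8 libraries were 0.69 to 0.98 among Ctrb1, Ctrl, Cela1, Cela2a and Cela3b, 0.50 to 0.71 between each of these and Cela3a, and -0.40 to -0.15 between each of these and Ctrc. All points share library scaling and composition, so these values describe the libraries only. Relative to its own mean, each of these 5 genes was below the mean in Daxx-deleted replicates 1 and 2 and above it in wild-type replicate 2 and Daxx-deleted replicate 4. The summed normalized counts of the 7 genes were 1902141 to 3010720.1, lowest in Daxx-deleted replicate 2 and highest in wild-type replicate 2, which was also the library with the fewest reads. The genotype means of this sum, 2565967 ± 320614 and 2365700.3 ± 463356 (SD, n = 4 each), differed by less than either SD.

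**Figure D5:**
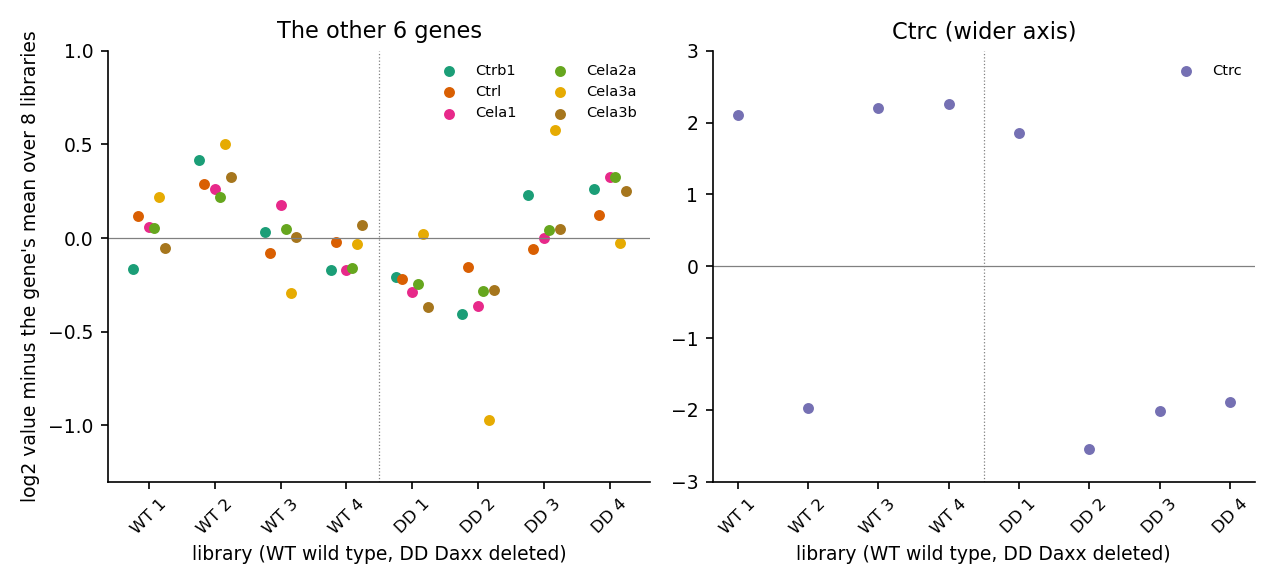
Log2 value of each gene minus its own mean over the 8 libraries, for the other 6 genes on the left and for Ctrc on the right, where the axis is wider (WT wild type, DD Daxx deleted; 1 point per gene and library). On the left Ctrb1, Ctrl, Cela1, Cela2a and Cela3b stay within 0.42 of their means and move together, and Cela3a drops to -0.97 in DD 2.

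Genes outside the family with the most similar patterns were found for each member among the 10461 other tested genes. For Ctrb1 these were Nupr1, a stress-induced chromatin protein gene (r = 0.99), and Prpsap1 (r = 0.99). For Cela3b they were Try4, a trypsinogen gene (r = 0.99), and Dhx32 (r = 0.97). For Ctrl they were Surf1 (r = 0.98), an assembly factor of the respiratory chain, and Clps (r = 0.97), colipase. 5330417C22Rik was among the top genes for both Cela1 (r = 0.98, with Pink1, a mitochondrial kinase gene, at 0.98) and Cela2a (r = 0.97, with Aamp at 0.97). For Cela3a they were P2rx1 (r = 0.96), an ATP-gated channel gene, and Osbpl3 (r = 0.95). Nupr1 ran from 2749 to 6224 normalized counts and Try4 from 294533 to 498418, each lowest in 1 of Daxx-deleted replicates 1 and 2 and highest in wild-type replicate 2.

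Other genes of protein digestion and of its control also gave no called gene. Of 9 tested trypsinogen genes, whose products activate the members, 4 lay above 0 and 5 below (median log2 fold change -0.13). Prss1 averaged 308 ± 158 (wild type) and 597 ± 239 (Daxx deleted), 1810009J06Rik 176 ± 97.6 and 379.6 ± 220.0, and Try10 3777 ± 1377 and 2657 ± 328 normalized counts (SD, n = 4 each, in that order here and below), all with a limma adjusted p of 0.9997. Trypsinogen genes are near-identical in places, and how reads were divided among them is not known. Of the carboxypeptidases, which trim the peptides that the members release, Cpb1 averaged 455004 ± 41084 and 389145 ± 36578, and Cpa1 438617 ± 48715 and 408141 ± 68846. Neither was called (limma adjusted p = 0.9997 for both).

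Of 8 tested genes of protease inhibitors and zymogen-processing proteases, 2 lay above 0 and 6 below (median -0.15). Spink1, the trypsin inhibitor of the acinar cell, had 6457, 6216, 6643 and 6842 in wild-type replicates 1 to 4 and 4445, 4692, 5068 and 5929 in Daxx-deleted replicates 1 to 4. The groups did not overlap (exact permutation p = 0.0286, the smallest it can give), as for 1.87% of all genes, and the limma adjusted p was 0.9997. Ctsl, cathepsin L, a lysosomal protease that breaks down trypsinogen, had 1024 ± 276 and 662 ± 251. Serpinb6a, an intracellular serine protease inhibitor gene, had 129.8 ± 20.9 and 99.4 ± 12.1.

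Of 10 tested genes of other digestive enzymes 9 lay below 0 (median -0.09), among them Pnliprp1, a lipase relative (276275 ± 9987 and 246224 ± 24072), Rnase1 (105326 ± 12233 and 96187 ± 4885) and Clps (96606 ± 11021 and 88960.2 ± 12278). Of 8 tested zymogen granule genes 7 lay below 0 (median -0.14), with Cuzd1, a granule membrane protein gene, at 21005 ± 1588 and 16905 ± 2082, Muc1 at 782 ± 89.2 and 669 ± 93.0 and the granule lectin gene Zg16 at 102838 ± 9709 and 87084 ± 9201. With equal library totals these counts fell to 3 of 10 and 4 of 8.

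Of 13 tested acinar transcription factor genes 9 lay above 0 and 4 below (median 0.11), and the number below was 1 with equal library totals and 2 with equal totals outside the digestive enzymes. Foxa2, a pioneer factor of gut-derived organs, had 76.6 ± 18.7 and 96.7 ± 17.9, Gata4 297 ± 38.2 and 341 ± 60.1, and Bhlha15, which encodes Mist1, a factor of secretory cell architecture, 1822 ± 249 and 1985 ± 241 (SD, n = 4 each). None of these passed, and each overlapped between the genotypes.

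Genes next to the other members were also not called. Next to Ctrb1, Zfp1 had 28.5 ± 7.26 and 20.3 ± 4.16 and Bcar1 116 ± 12.8 and 135 ± 13.6. Next to Ctrl, Pskh1 had 76.5 ± 4.76 and 78.9 ± 6.77 and Psmb10, a subunit of the immunoproteasome, 724 ± 129 and 648 ± 72.8. Next to Cela1, Smagp had 14.5 ± 2.66 and 20.8 ± 7.003 and Galnt6 134 ± 21.3 and 135 ± 30.3. Beyond the Cela3 pair, Cdc42 had 302 ± 80.7 and 312 ± 58.2 and Hspg2, perlecan, 972 ± 293 and 1116 ± 211. Each of these ran at under 1% of the counts of the elastase or chymotrypsin gene beside it, Cela3a excepted.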

How the data were processed

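Whole-pancreas RNA of 8 mice was sequenced by the authors with a TruSeq Stranded Total RNA kit, per the labels' protocols. The deposited table holds a signal per gene and library: read counts that the authors divided by a library-wide size factor, which the steps between values reveal. STAR 2.6.0b, DESeq2 and GRCm38 are named per the submitters' processing notes. For the read counter, its treatment of shared reads and the gene filter, a name or setting was not given in the sources used here. Dividing by each library's step gave whole reads for 100% of values (tolerance 0.001), and libraries held 7705789 to 10517508 reads. In each gene's fourth-highest library there were 5 reads or more. Pairs of libraries of 1 genotype differed by more than counting noise (chi-square 6.81 to 25.3 per degree of freedom), so all 8 were kept.

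Genes with a mean of at least 10 (10468 of 11789) were tested on log2(normalized count + 1) with limma 3.58.1 (R 4.3.3, trend option, genotype only, two-sided, Benjamini-Hochberg over all tested genes, called under 0.05). Fold changes are on that scale, which understates changes of low genes. Single genes were also tested by exact permutation (smallest p 0.0286). edgeR 4.0.16 and DESeq2 1.42.0 on recovered reads called 0 genes and 1 gene. The limma step was also run on simulated counts with known changes. These held no gene at 2 levels within a genotype, so they do not bear on Ctrc. Other alternatives were pseudocounts of 0.5 and 8, 3 other scalings, no filter and a minimum mean of 50, robust moderation, a Y-linked covariate, an adjusted p under 0.10 and each library left out; a further length for the order of levels was chosen after seeing the data. Annotation is GENCODE M21 (GRCm38); promoters are from RefSeq (GRCm38.p6). The members and lists were chosen with earlier results of these data known. Named genes are Daxx, the members, up to 3 genes of each list by unadjusted p, the 2 genes most like each member by Pearson r, the nearest tested genes beside each member and the most abundant gene. One gene that this rule names is not reported here. Replicates are numbered in accession order. The design text gives separate mice, 2 of each sex per genotype.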

Additional observations from a re-analysis of the deposited data

Results flagged for a closer look

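Ctrc had 1 library far from the other 3 in both genotypes by Dixon's criterion: 4065 normalized counts in wild-type replicate 2, against 68282 to 76266, and 57356 in Daxx-deleted replicate 1, against 2723 to 4297. The same criterion, applied to the 48 named genes in both genotypes, picked 10 of 96 groups, where chance picks about 1 in 20, or 4.80. Several of the named genes were chosen for their likeness to a member or for a small p, so the groups are not independent.

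Among genes beside the members, Casp9 had 11.5 in wild-type replicate 4, against 27.3 to 29.2, and Cdc42 had 398 in Daxx-deleted replicate 2, against 269.7 to 291. Among genes of similar pattern, Dhx33 had 117 in Daxx-deleted replicate 1, against 98.9 to 99.96, and Dhx32 had 145 in wild-type replicate 2, against 128 to 130.1. Ctsl had 1037 in Daxx-deleted replicate 1, against 515 to 568, and Gata4 had 430.5 in Daxx-deleted replicate 4, against 303 to 321. Pnliprp1 had 261483 in wild-type replicate 2, against 278981 to 282498, and Rnase1 had 103497 in Daxx-deleted replicate 4, against 93265 to 94069.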

How the results depend on the processing

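Over 19 alternative fits of the 7 members, 126 of 133 log2 fold changes lay below 0 and none passed an adjusted p of 0.05 (smallest 0.438, Ctrc without wild-type replicate 2). The fits reuse the same libraries, and a change of filter or of moderation leaves the fold change itself as it was. The count of signs is therefore no measure of support. Ctrb1 turned to 0.063 with equal library totals and 0.00025 with equal totals outside the digestive enzymes, and Cela2a to 0.040 with equal library totals. With 1 library left out in turn Ctrb1 ran from -0.16 to 0.070 (0.00090 without Daxx-deleted replicate 1), Cela2a from -0.20 to -0.0020, Cela3a from -0.42 to 0.094 and Ctrc from -3.34 to -1.83. The number of genes called in all was 1 with equal library totals, robust moderation, the Y-linked covariate or DESeq2, and 0 to 1 with 1 library left out; it was no member. Under an adjusted p of 0.10 no gene was called. No paired analysis was possible because the labels give no replicate numbers shared between the genotypes. Coding or transcript length in place of exonic length moved only the order of Cela1 and Cela2a and of Ctrl and Cela3b. For the members other than Ctrc the 95% intervals of limma reach -0.74 log2 units at most, and changes inside each interval cannot be told from none with 4 mice per genotype.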
